A study of Mus musculus with 12 samples.

Results

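10 genes of the DNA methylation system were followed across sorted blood progenitors: the methylcytosine dioxygenases Tet1, Tet2 and Tet3, the DNA methyltransferases and their helpers Dnmt1, Dnmt3a, Dnmt3b, Dnmt3l and Uhrf1, and the isocitrate dehydrogenases Idh1 and Idh2. They were chosen by name, and every array probe whose RefSeq accession a gene table assigns to one of these symbols was taken. Of the 10 genes, 9 had a probe, with 15 probes in all; the 9 belong to 20284 symbols with a probe, and all 9 were among the 13712 genes tested. No value is given for Tet1, because no probe carried an accession that the gene table assigns to it.

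The cells came from bone marrow of recipient mice repopulated with fetal liver cells of the C57BL/6 strain. In each of 2 cell types there were 6 conditions with 1 array each: Tet2KD/KDEzh2-/- cells of mice with RAEB (refractory anaemia with excess blasts), Tet2KD/KDEzh2-/- cells of mice with MDS/MPN (myelodysplastic/myeloproliferative neoplasm), Tet2KD/KDEzh2-/- cells without a disease label (DKO below), Ezh2-/- cells, Tet2KD/KD cells and wild-type cells. The cell types were granulocyte-macrophage progenitors (GMPs), which give rise to granulocytes and macrophages, and LSK cells, which lack lineage markers, carry Sca-1 and c-Kit, and include the blood stem cells. Tet2KD/KD is a hypomorph, which lowers Tet2 without removing it. All cells had been transplanted, the wild-type cells too. The number of mice behind an RNA is not given, nor how Ezh2 was deleted or what host cells remained, so a p-value here measures the spread between arrays of different conditions and not that between mice.

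DNMT enzymes put methyl groups on cytosines of CpG dinucleotides: Dnmt3a and Dnmt3b set new marks, Dnmt3l is an enzymatically inactive partner that stimulates them, and Dnmt1, guided by Uhrf1 to hemimethylated DNA, copies marks after replication. TET enzymes oxidise methylcytosine, the first step of its removal, and need 2-oxoglutarate, which Idh1 makes in the cytosol and Idh2 in mitochondria. In blood, TET2, DNMT3A, IDH1 and IDH2 are among the genes most often mutated in human myeloid disease.

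A level is a log2 signal from which the log2 75th percentile of its array was subtracted, so 0 is that percentile. Differences are log2 differences with a standard error (SE) from limma, and a gene was called where its Benjamini-Hochberg adjusted p over all genes tested was under 0.05. A probe's level depends on its sequence, so the genes are not ranked against each other. The labelled cell types were checked against markers: summed signals of 8 GMP markers, in units of the 75th percentile, ran from 4280 to 6693 in GMPs and from 315.6 to 1386 in LSK cells, and those of 11 LSK markers from 129.7 to 224 in GMPs and from 350 to 445.4 in LSK cells. The GMP marker sum was 1386 on the MDS/MPN and 996.9 on the RAEB LSK array, against 315.6 to 490.8 on the other LSK arrays. Not all LSK markers followed their sum: Ly6a read 4.64 on the GMP MDS/MPN array and 3.94 on the wild-type LSK array. The GMP RAEB array had the lowest LSK marker sum but the highest mean level of these markers among GMPs (0.05, against -1.48 to -1.05). Flt3 read 4.58 there. The Ezh2 probe read 2.50 to 3.40 over the 12 arrays and differed by 0.01 (SE 0.12, limma adjusted p = 0.995) between Ezh2-/- and Ezh2-intact arrays; its position relative to the deleted part is unknown, so it does not check that genotype. The GMP RAEB array stood apart, with mature neutrophil markers (8 genes) summing to 701.5 against 28.53 to 179.8 in the other GMPs, and proliferation markers (13 genes) summing to 457.5 against 600.6 to 793.4. Xist was high (1.17 to 2.57) on the wild-type, DKO and diseased LSK arrays and low (-6.15 to -4.36) on the other 6, where the Y-linked Eif2s3y was high (0.82 to 2.68, against -6.76 to -6.20). The GMP and the LSK array of each diseased condition thus differed in sex pattern, and they lay on different slides. Because cells were measured in bulk, fewer cells of a type and less RNA per cell cannot be told apart.

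**Figure D1:**
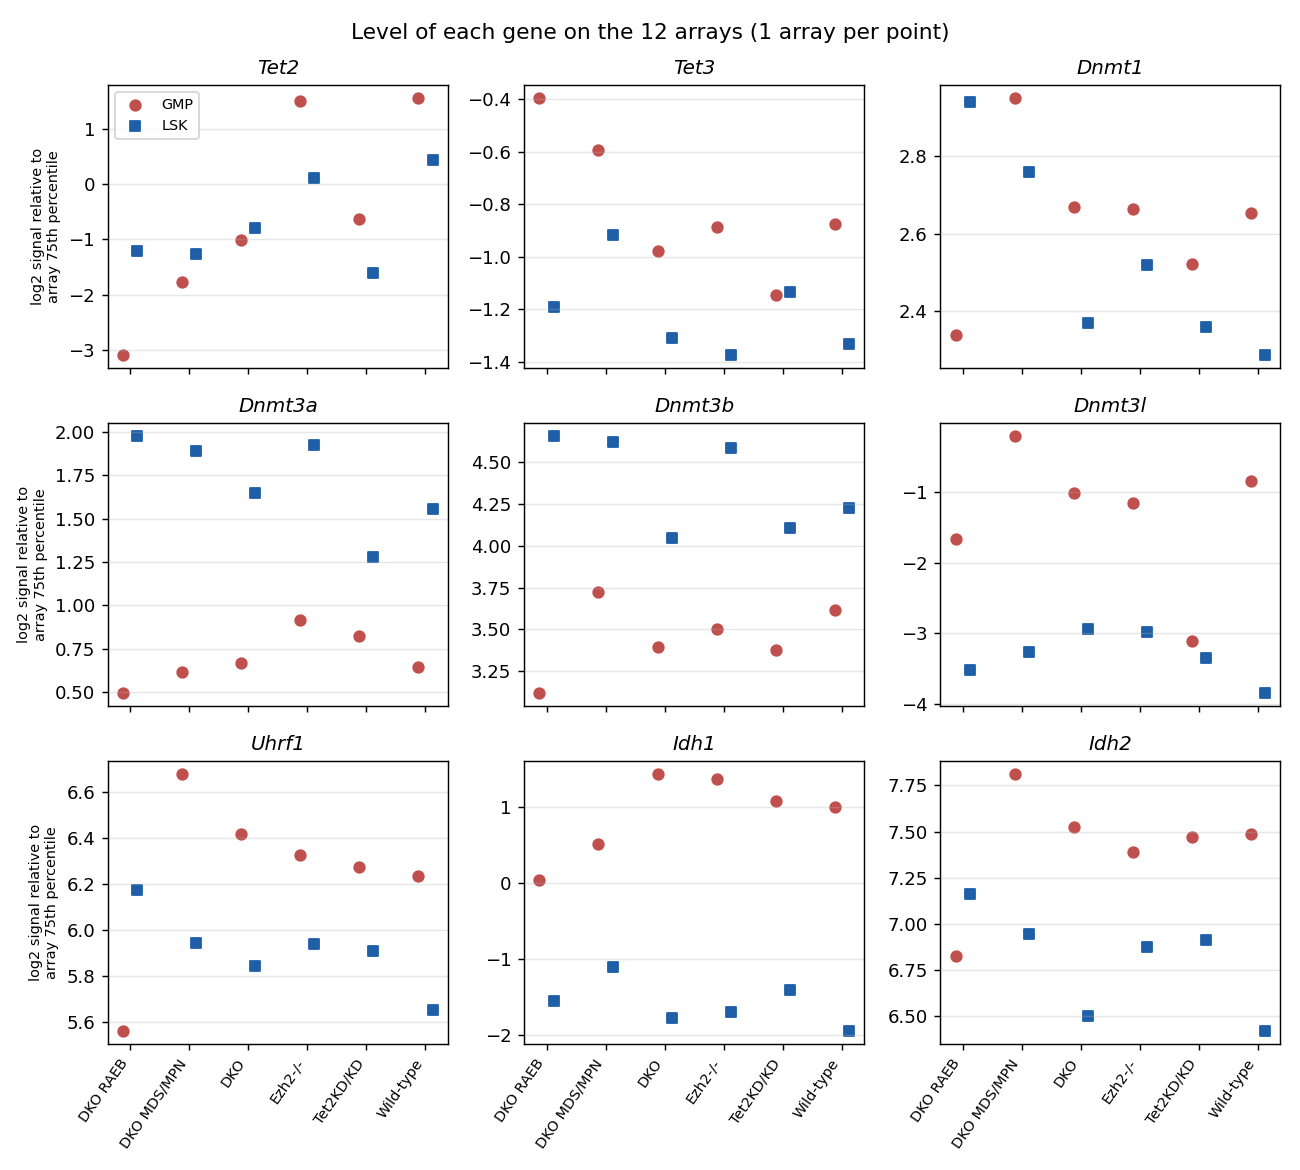
Level of each of the 9 genes (log2 signal relative to the array's 75th percentile, vertical axes with their own ranges) on the 12 arrays, 1 point per array, GMPs as red circles and LSK cells as blue squares, by condition. Dnmt3a and Dnmt3b lie lower in GMPs and Idh1 higher in every condition, and Tet2 lies lowest on the GMP RAEB array at -3.09.

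The first comparison asks how GMPs differ from LSK cells. The de novo methyltransferase genes Dnmt3a and Dnmt3b fell in GMPs, to a 2.02-fold and a 1.89-fold lower signal than in LSK cells, while their partner Dnmt3l rose 3.95-fold and Idh1 rose 5.59-fold. The maintenance genes Dnmt1 and Uhrf1 did not pass the test on their brightest probes, though a second Uhrf1 probe did where every probe was tested. In total, 6 of the 9 genes were called, 4 higher and 2 lower, in a comparison that called 44.5% of all genes tested (25.7% higher and 18.9% lower) and had an all-gene median of 0.16. Promoters are shown for Dnmt3a and Dnmt3b, which moved together, and for Idh1, which moved the other way. These are the 250 bases upstream of the first listed start in RefSeq on GRCm38.p6, written 5′ to 3′ on the gene's strand with CpG dinucleotides, the substrate of these enzymes, in capitals: Dnmt3a at chr12:3806730-3806979 (+), Dnmt3b at chr2:153649199-153649448 (+) and Idh1 at chr1:65186480-65186729 (-).
Dnmt3a: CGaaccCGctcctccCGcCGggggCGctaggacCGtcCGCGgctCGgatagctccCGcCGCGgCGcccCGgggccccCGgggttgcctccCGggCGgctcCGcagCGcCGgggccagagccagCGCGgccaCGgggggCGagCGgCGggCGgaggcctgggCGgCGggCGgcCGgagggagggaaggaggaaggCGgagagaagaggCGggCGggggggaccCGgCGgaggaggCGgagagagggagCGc
Dnmt3b: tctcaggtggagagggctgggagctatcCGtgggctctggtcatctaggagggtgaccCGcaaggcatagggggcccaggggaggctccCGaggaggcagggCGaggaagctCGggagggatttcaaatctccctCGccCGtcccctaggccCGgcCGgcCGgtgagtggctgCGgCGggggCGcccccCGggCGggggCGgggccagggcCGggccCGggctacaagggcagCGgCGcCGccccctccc
Idh1: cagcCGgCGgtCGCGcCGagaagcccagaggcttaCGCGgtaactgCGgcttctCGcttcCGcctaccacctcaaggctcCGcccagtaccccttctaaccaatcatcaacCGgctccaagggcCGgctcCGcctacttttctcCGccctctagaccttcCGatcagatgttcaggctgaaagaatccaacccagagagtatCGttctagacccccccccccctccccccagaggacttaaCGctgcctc
The Dnmt3a window holds 38 CpG dinucleotides, a number reached by 1.88% of 32851 mouse promoter windows of that length, whose median is 6. The Dnmt3b window holds 21 (reached by 16.3%) and the Idh1 window 18 (reached by 21.7%). On either strand, GAGGAA, the core of PU.1 sites, occurs once in the Dnmt3a and once in the Dnmt3b window and in 23.3% of all windows. The Idh1 window has no GAGGAA, and none of the 3 holds TGTGGT (RUNX, 14.0% of all windows), TTGCNNAA (C/EBP, 9.56%) or TTTNNCGC (E2F, 4.28%). The motif matches describe letters in these windows only; Dnmt3a and Idh1 have other annotated starts, 3 and 2 in all.

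Dnmt3a, which sets new methylation marks and limits stem cell self-renewal in mouse blood, read 0.50 (lowest), 0.66 (median) and 0.92 (highest) in the 6 GMP arrays and 1.28, 1.77 and 1.98 in the 6 LSK arrays. Every GMP array lay below every LSK array. The difference was -1.02 (SE 0.15, limma adjusted p = 0.00132, lower in 6 of 6 conditions). It was smallest in Tet2KD/KD cells (-0.46) and largest in RAEB cells (-1.48), where the GMP array was the lowest of its type and the LSK array the highest. The RAEB arrays of the cell types also differed in slide and sex pattern, which cannot be told apart from disease in this step.

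Dnmt3b, the second de novo enzyme, read 3.12, 3.45 and 3.73 in GMPs (lowest, median, highest) and 4.05, 4.41 and 4.66 in LSK cells. Again the groups did not overlap, and the difference was -0.92 (SE 0.15, limma adjusted p = 0.00219, lower in 6 of 6 conditions). Its other 2 probes gave -0.71 and -0.86, also lower in 6 of 6 conditions each. Over the 12 arrays the levels of Dnmt3a and Dnmt3b had a Pearson r of 0.94, a value that the shared step between cell types enters.

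Dnmt3l, best known from germ cells, read -3.11, -1.09 and -0.21 in GMPs and -3.84, -3.30 and -2.94 in LSK cells (lowest, median, highest). These signals are dim: the probe was well above background on 6 of 6 GMP arrays and on 5 of 6 LSK arrays. The difference was 1.98 (SE 0.35, limma adjusted p = 0.00293, higher in 6 of 6 conditions). The cell types overlapped through a single array, the Tet2KD/KD GMPs at -3.11, which lay within the LSK range while the other 5 GMP arrays read -1.66 or more. Without the Tet2KD/KD pair, which drops out whole because condition is a block, the difference was 2.33 (SE 0.25, limma adjusted p = 0.000631). With normexp background correction it was 1.07 (SE 0.21, limma adjusted p = 0.00353).

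Idh1, the cytosolic isocitrate dehydrogenase, read 0.04, 1.04 and 1.44 in GMPs and -1.94, -1.62 and -1.10 in LSK cells (lowest, median, highest). All GMP arrays lay above all LSK arrays, and the difference was 2.48 (SE 0.26, limma adjusted p = 0.000228, higher in 6 of 6 conditions). Both diseased conditions had the smallest steps, 1.58 in RAEB and 1.61 in MDS/MPN cells, against 2.48 to 3.21 in the other 4 conditions. The GMP and LSK arrays of the diseased conditions differed in slide and sex pattern, so disease, slide and sex cannot be told apart in these steps. The diseased LSK arrays also had higher summed GMP markers than the other LSK arrays. The part of these markers in the steps was not tested. In the other 4 conditions, which shared 1 slide, the difference was 2.93 (SE 0.15, limma adjusted p = 0.000122). With normexp background correction over all 12 arrays it was 1.88 (SE 0.19, limma adjusted p = 6.06e-05).

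Idh2, the mitochondrial enzyme, read 6.83, 7.48 and 7.81 in GMPs and 6.42, 6.89 and 7.16 in LSK cells (lowest, median, highest). The groups overlapped, since the GMP RAEB array at 6.83 lay below 4 of the LSK arrays. The difference of 0.62 (SE 0.20, limma adjusted p = 0.0363, higher in 5 of 6 conditions) was called, but it was 0.09 (adjusted p = 0.691) under quantile normalization. Without the RAEB pair it was 0.81 (SE 0.13, limma adjusted p = 0.00291).

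Tet3, a TET enzyme known for its role in the zygote and neurons, read -1.15, -0.88 and -0.40 in GMPs and -1.37, -1.25 and -0.92 in LSK cells (lowest, median, highest). The ranges overlapped, and the Tet2KD/KD pair did not share the direction (-0.01). The difference was 0.40 (SE 0.13, limma adjusted p = 0.0422, higher in 5 of 6 conditions). The other 2 probes gave 0.65 and 0.28. All 3 probes read highest of the 12 arrays on the GMP RAEB array. Without the RAEB pair the difference was 0.32 (SE 0.12, limma adjusted p = 0.0645), and without the Tet2KD/KD pair it was 0.48 (limma adjusted p = 0.0308).

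Uhrf1, the reader that brings Dnmt1 to replicated DNA, read 5.56, 6.30 and 6.68 in GMPs and 5.65, 5.92 and 6.18 in LSK cells (lowest, median, highest). It was higher in GMPs in 5 of 6 conditions, and the difference of 0.34 (SE 0.19, limma adjusted p = 0.177) did not pass. The exception was the RAEB pair (-0.62). Without that pair Uhrf1 passed at 0.53 (SE 0.11, limma adjusted p = 0.00768), although under quantile normalization with all arrays the sign turned (-0.14). A second, dimmer Uhrf1 probe gave 0.54 (SE 0.18), also higher in 5 of 6 conditions. With every probe tested, its limma adjusted p was 0.0485. Dnmt1 had the same layout, with 5 of 6 conditions higher and RAEB lower (-0.60), a difference of 0.09 (SE 0.15, limma adjusted p = 0.637; 95% interval -0.26 to 0.45) and a turned sign under quantile normalization (-0.10). On the GMP RAEB array both genes were the lowest of the 6 GMP arrays, as were the proliferation markers given above; the part of these markers in the result was not tested.

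Tet2 showed no common direction between the cell types. GMPs were above LSK cells in the wild-type (1.13) and Ezh2-/- (1.39) conditions, where Tet2 is intact, and in Tet2KD/KD cells (0.97). They were below LSK cells in DKO (-0.22), MDS/MPN (-0.51) and RAEB cells (-1.87). The shared difference was 0.15 (SE 0.42, limma adjusted p = 0.792; 95% interval -0.83 to 1.13), and over the 8 arrays without disease it was 0.82 (SE 0.28, adjusted p = 0.0531).

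Of the 9 genes, 3 (Dnmt3a, Dnmt3b and Idh1) had no overlap between the 6 GMP and the 6 LSK arrays, in a comparison where 25.6% of genes had none. Over the 8 arrays without disease, on 1 slide, Dnmt3a (-0.84), Dnmt3b (-0.77), Dnmt3l (1.75), Idh1 (2.93), Idh2 (0.79) and Uhrf1 (0.48) passed. Tet3 (0.32, limma adjusted p = 0.0868) did not. These passes stand beside 7195 genes called with the same 8 arrays, 4220 higher and 2975 lower (all-gene median 0.12). The comparison of all arrays called fewer, 6108 of the 13712 genes tested.

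**Figure D2:**
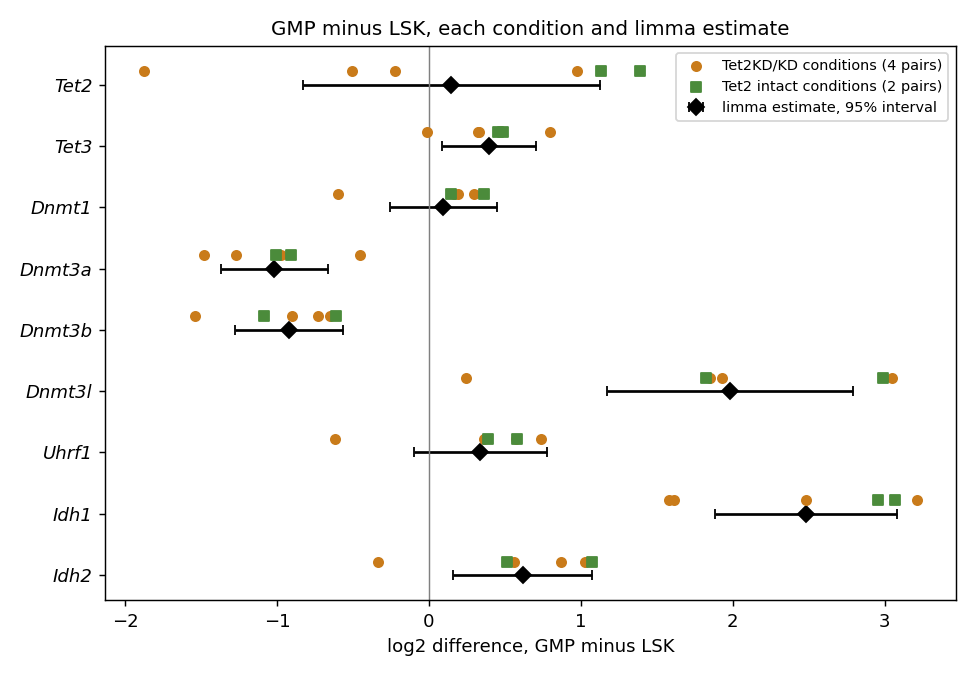
Log2 difference, GMP minus LSK, for each gene: black diamonds are limma estimates over the 6 conditions with 95% intervals, orange circles the 4 Tet2KD/KD conditions and green squares the 2 Tet2-intact conditions. Idh1 and Dnmt3l lie to the right of 0 and Dnmt3a and Dnmt3b to the left in all 6 conditions, while the Tet2 points run from -1.87 to 1.39.

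Other genes of the pathway were described by list in the same comparison, with the main normalization only. The lists were not examined under quantile normalization, which moved the all-gene median from 0.16 to 0.01. Of 18 genes of 2-oxoglutarate metabolism, 12 rose in GMPs, 0 fell and 6 did not pass, with a median of 0.55 beside the all-gene median of 0.16 and 25.7% of all genes called higher. They included Sdhd, a subunit of succinate dehydrogenase (0.91, SE 0.13), the mitochondrial aspartate aminotransferase gene Got2 (0.79, SE 0.15) and Dlst of the 2-oxoglutarate dehydrogenase complex (0.60, SE 0.12). Succinate, which succinate dehydrogenase consumes, inhibits TET enzymes.

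Readers of methylated DNA split, 3 higher, 3 lower and 3 not called of 9, beside 25.7% of all genes called higher and 18.9% lower. Zbtb4, a zinc finger protein that binds methylated CpG, was -2.79 (SE 0.24). Uhrf2, the relative of Uhrf1, was -0.47 (SE 0.11), and Mbd1 was 0.48 (SE 0.11). Of 3 TET partners tested, 2 were called, both lower, beside 18.9% of all genes called lower. Cxxc5, a CXXC-domain protein that binds Tet2, was -2.16 (SE 0.12). Dcaf1, a ubiquitin ligase subunit that modifies TET proteins, was -0.64 (SE 0.17). Ogt, the O-GlcNAc transferase that binds TET proteins, gave -0.79 (SE 0.32, limma adjusted p = 0.0798).

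Of 14 genes of base excision repair and active demethylation, 2 rose, 3 fell and 9 did not pass, with a median of 0.00. Of all genes tested, 25.7% were called higher and 18.9% lower. The stress gene Gadd45a rose by 1.86 (SE 0.34) and the repair scaffold gene Xrcc1 by 0.50 (SE 0.11), the uracil glycosylase gene Smug1 fell by 0.99 (SE 0.14), and the glycosylase gene Neil2 was at least 2.95-fold lower in GMPs, where its probe was not well above background. None of the 9 partners of methylation that were tested passed, although all 9 estimates were above 0 (median 0.28), beside 59.9% of all genes (median 0.16). Of 10 genes of the S-adenosylmethionine cycle, which supplies the methyl group, 1 rose (Shmt2, 0.78, SE 0.21), 1 fell and 8 did not pass. Both counts stand beside the same shares of all genes.

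**Figure D3:**
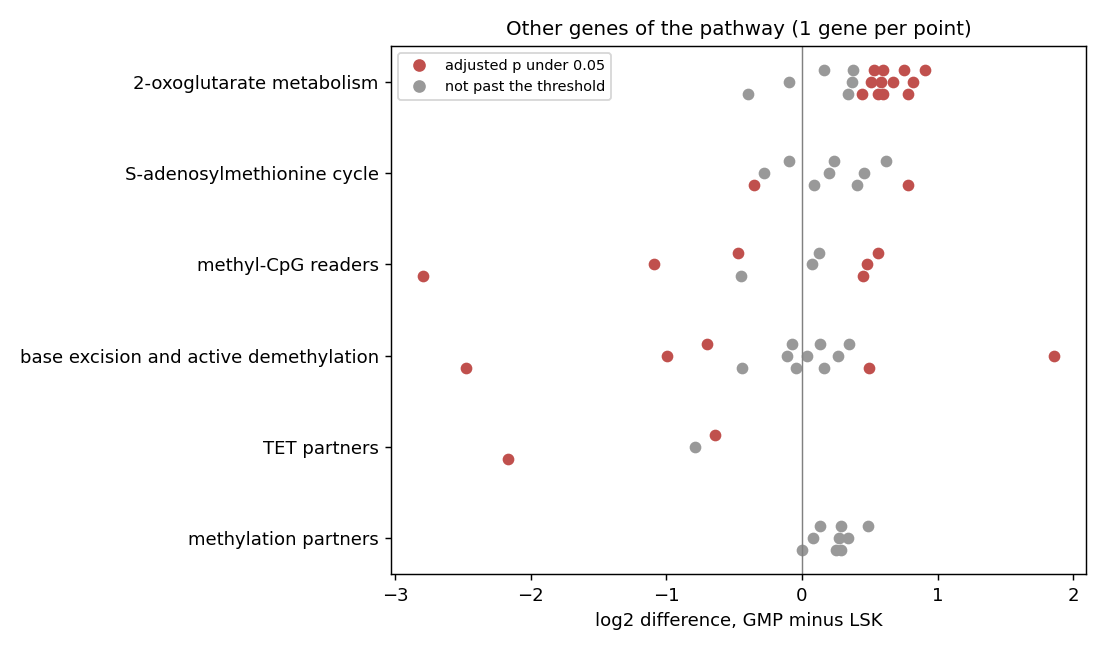
Log2 difference, GMP minus LSK, for each tested gene of 6 pathway lists, 1 point per gene, red where the limma adjusted p was under 0.05 and grey otherwise. The 12 red points of 2-oxoglutarate metabolism all lie to the right of 0, while the methyl-CpG readers have 3 on each side.

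The second comparison asks what the Tet2 knockdown did, and whether Tet3 was higher where Tet2 was low. It set 4 Tet2KD/KD arrays against 4 Tet2-intact arrays without disease. Tet2 itself was lower in each of the 4 matched pairs, and Tet3 did not pass in either direction. The arrays of each pair also differed in sex pattern, so sex and knockdown cannot be told apart within a pair. The direction of the sex difference was opposite in pairs with intact and with deleted Ezh2. With sex pattern as a covariate the shared Tet2 difference was -1.92 (SE 0.28). The Tet2 test called 0% of all genes (787 genes, or 5.74%, had an unadjusted p under 0.05), so 0 of the 9 genes were called in it by limma, with 1 of them, Tet2, at an unadjusted p under 0.05.

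In GMPs, Tet2 read -0.64 in Tet2KD/KD cells against 1.57 in wild-type cells, and -1.01 in DKO against 1.51 in Ezh2-/- cells. In LSK cells it read -1.61 in Tet2KD/KD against 0.44 in wild-type cells, and -0.79 in DKO against 0.12 in Ezh2-/- cells. Within each cell type both knockdown arrays lay below both intact arrays. The knockdown signal was thus 21.7% and 17.5% of the matched intact signal in GMPs and 24.2% and 53.4% in LSK cells.

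The difference was -1.92 (SE 0.27, 95% interval -2.57 to -1.27, limma adjusted p = 0.381, range over the alternatives 0.0914 to 1.00). It had the ninth smallest p of 13712 genes (0.000263 unadjusted), and 8 genes had a lower difference. A second Tet2 probe, dimmer by level, gave -1.90 (SE 0.28) and matched pair differences of -2.24 and -2.48 in GMPs and of -2.01 and -0.88 in LSK cells. The DKO LSK array was the one with the weakest knockdown on both probes. Without it the difference was -2.23 (SE 0.14, limma adjusted p = 0.0987). With normexp correction over all 8 arrays the first probe gave -1.43 (SE 0.19).

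Tet3 read -1.15 in Tet2KD/KD GMPs against -0.87 in wild-type GMPs, and -0.98 in DKO against -0.89 in Ezh2-/- GMPs. In LSK cells it read -1.13 in Tet2KD/KD against -1.33 in wild-type cells, and -1.31 in DKO against -1.37 in Ezh2-/- cells. On this probe, the brightest, both GMP pairs were thus slightly lower and both LSK pairs slightly higher with the knockdown, a pattern that neither other probe had. The shared difference was -0.03 (SE 0.12, limma adjusted p = 0.972), with a 95% interval of -0.31 to 0.25. On this probe a rise of over 1.19-fold shared by both cell types lies outside the interval. The interval does not bound a rise in LSK cells alone, and it does not measure the spread between mice. The other 2 Tet3 probes gave -0.23 (SE 0.17) and -0.15 (SE 0.23). Over the 12 arrays the levels of Tet2 and Tet3 had a Pearson r of -0.41, given as a description, with cell type and disease entering it.

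**Figure D4:**
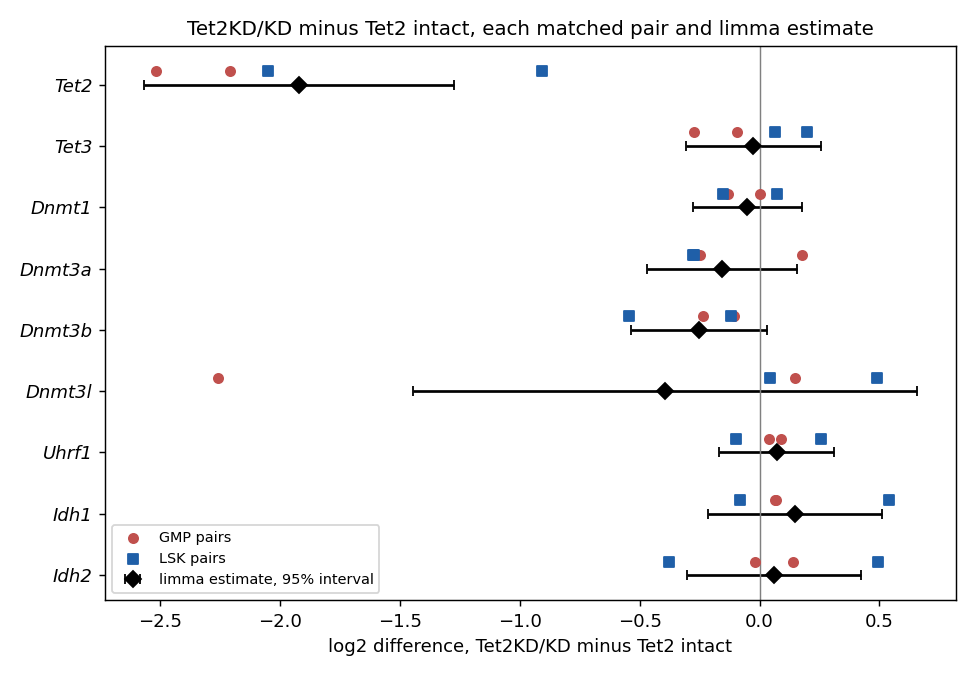
Log2 difference, Tet2KD/KD minus Tet2 intact, for each gene: black diamonds are limma estimates over 4 matched pairs with 95% intervals, red circles the GMP pairs and blue squares the LSK pairs. The Tet2 points lie between -2.52 and -0.91 and those of Tet3 between -0.27 and 0.20, while 1 Dnmt3l point, the GMP pair with intact Ezh2, lies at -2.26.

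No methyltransferase gene passed. Dnmt3b was lower in 4 of 4 pairs (-0.25, SE 0.12, 95% interval -0.53 to 0.03, limma adjusted p = 0.818), but its other probes were lower in 2 and 3 of 4 pairs, at -0.05 and -0.18. Dnmt3a (-0.16, SE 0.13) was lower in 3 of 4 pairs and Dnmt1 (-0.05, SE 0.09) in 2 of 4. Dnmt3l (-0.39, SE 0.44) depended on the Tet2KD/KD GMP array, without which it was 0.10 (SE 0.24), and without the wild-type GMP array it was 0.04. Uhrf1 (0.07, SE 0.10), Idh1 (0.15, SE 0.15) and Idh2 (0.06, SE 0.15) had intervals that include 0. The median size of the 8 differences other than that of Tet2 was 0.11, beside 0.13 over all genes.

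The knockdown effect was also compared between cell types (effect in GMPs minus effect in LSK cells), where 0% of all genes and 0 of the 9 genes passed, none of the 9 at an unadjusted p under 0.05. For Tet2 this difference was -0.89 (SE 0.45, limma adjusted p = 1.00), for Tet3 -0.31 (SE 0.24) and for Dnmt3l -1.32 (SE 0.76). Single arrays moved all 3: Tet2 was -1.42 without the Tet2KD/KD LSK array and -0.35 without the DKO LSK array. Dnmt3l was -0.43 without the Tet2KD/KD, -0.61 without the wild-type, -2.04 without the Ezh2-/- and -2.21 without the DKO GMP array, and -0.61 with normexp correction. Tet3 was -0.19 without the Tet2KD/KD GMP array, -0.21 without the Tet2KD/KD LSK array and -0.04 with the mean of its probes. Dnmt3a (0.24, SE 0.28), Dnmt3b (0.16, SE 0.27), Idh1 (-0.16, SE 0.33), Dnmt1 (-0.024, SE 0.23), Uhrf1 (-0.015, SE 0.24) and Idh2 (0.0020, SE 0.34) had smaller differences. Whether the knockdown effect differed with Ezh2 genotype was tested as an interaction, in which 0.0365% of genes and 0 of the 9 passed, none of the 9 at an unadjusted p under 0.05. The interaction estimates were 0.42 for Tet2 (SE 0.56), 0.98 for Dnmt3l (SE 0.85) and 0.022 for Tet3 (SE 0.25), and the other 6 genes lay below 0: Idh2 (-0.36), Idh1 (-0.31), Dnmt3a (-0.22), Dnmt3b (-0.15), Uhrf1 (-0.15) and Dnmt1 (-0.045). Of all genes tested, 37.8% had an interaction estimate above 0 (median -0.09). The Xist pattern of the arrays coincides with this interaction, so sex and interaction cannot be told apart. For the other 6 pathway lists, 0 genes passed for the Tet2 knockdown.

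Ezh2 loss, 4 Ezh2-/- arrays against 4 Ezh2-intact arrays without disease, called 0.19% of all genes and 0 of the 9 genes, none of them at an unadjusted limma p under 0.05. The arrays of each pair differed in sex pattern here too, so sex and Ezh2 loss cannot be told apart within a pair. Dnmt3l had the widest estimate, 0.76 (SE 0.44, adjusted p = 0.734), higher in 3 of 4 pairs. Dnmt3a gave 0.21 (SE 0.13) with 3 of 4 pairs higher, and Dnmt1 gave 0.10 (SE 0.09) with 4 of 4. Idh1 gave 0.15 (SE 0.15), Uhrf1 0.11 (SE 0.10), Dnmt3b 0.051 (SE 0.12) and Idh2 0.00080 (SE 0.15). Tet2 (0.01, SE 0.27) and Tet3 (-0.02, SE 0.12) lay near 0, and at the level of pairs Tet2 ran from -0.37 to 0.82, the last being DKO against Tet2KD/KD LSK cells.

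The last comparison sets the diseased Tet2KD/KDEzh2-/- cells against DKO cells of the same genotype. On the brightest probes Tet2 read lower and Tet3 higher in 4 of 4 pairs. However, 0 of the 9 genes were called by limma, where 0.00729% of all genes were. None of the 9 had an unadjusted p under 0.05 on these probes. The diseased arrays lay on other slides than the DKO arrays, so disease and slide cannot be told apart. In GMPs sex cannot be told apart from disease either: Xist read 1.17 on the DKO array and -5.56 (MDS/MPN) and -5.59 (RAEB) on the diseased arrays. In LSK cells Xist was high on the DKO array and on both diseased arrays.

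In GMPs, Tet2 read -3.09 in RAEB and -1.77 in MDS/MPN cells against -1.01 in DKO cells, and in LSK cells -1.22 in RAEB and -1.27 in MDS/MPN cells against -0.79 in DKO cells. All 4 diseased arrays lay below the DKO array of their cell type. The difference was -0.94 (SE 0.63, limma adjusted p = 0.529; 95% interval -2.40 to 0.53), the second probe, not well above background on the GMP RAEB array, gave -1.05 (SE 0.50, also lower in 4 of 4 pairs), and without the GMP RAEB array the first probe gave -0.33 (SE 0.47). With normexp correction the first probe gave -0.51 (SE 0.32). On the GMP RAEB array Tet2 was at 3.94% of the wild-type GMP signal, with a dim processed signal of 19.74. The lowest signal well above background on that array was 12.35. That array also had the high summed neutrophil signal, which not all markers of the list shared and whose part in this value was not tested. The LSK MDS/MPN array had a summed neutrophil signal of 343.8 against 10.76 to 91.55 on the other LSK arrays.

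Tet3 read -0.40 in RAEB and -0.59 in MDS/MPN GMPs against -0.98 in DKO GMPs, and -1.19 in RAEB and -0.92 in MDS/MPN LSK cells against -1.31 in DKO LSK cells. The difference of 0.37 (SE 0.20, limma adjusted p = 0.444; 95% interval -0.09 to 0.83) was not shared by the other 2 probes, each higher in 2 of 4 pairs, both of them in GMPs. The Idh1 pairs had opposite signs by cell type: 0.04 in RAEB and 0.52 in MDS/MPN GMPs against 1.44 in DKO GMPs, and -1.54 in RAEB and -1.10 in MDS/MPN LSK cells against -1.77 in DKO LSK cells. The shared difference was -0.35 (SE 0.39, limma adjusted p = 0.704), and the difference between the cell types was not tested. Dnmt3b was higher in 3 of 4 pairs (0.31, SE 0.23), the exception being the RAEB GMPs, and its other probes were higher in 4 of 4 pairs. They gave 0.22 (SE 0.18) and 0.55 (SE 0.23, limma unadjusted p = 0.0456, adjusted over all probes 0.342). The shared difference was 0.23 (SE 0.23) for Dnmt1, 0.17 (SE 0.30) for Idh2, 0.086 (SE 0.23) for Dnmt3a, -0.039 (SE 0.28) for Uhrf1 and -0.18 (SE 0.52) for Dnmt3l. Uhrf1 was higher in 3 of 4 pairs on this probe, but its second probe gave -0.34 (SE 0.27), higher in 1 of 4.

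RAEB against MDS/MPN, which lay on the same slide within each cell type, called 0% of all genes and 0 of the 9 by limma, none of the 9 at an unadjusted p under 0.05. Of all genes tested, 40.7% had an estimate above 0 (median -0.07), and on their brightest probes all 9 estimates of the named genes lay below 0. They were -0.85 for Dnmt3l (SE 0.60), -0.63 for Tet2 (SE 0.73), -0.46 for Idh1 (SE 0.45), -0.44 for Uhrf1 (SE 0.33) and -0.38 for Idh2 (SE 0.34). Dnmt3b gave -0.29 (SE 0.26), Dnmt1 -0.21 (SE 0.26), Tet3 -0.038 (SE 0.23) and Dnmt3a -0.015 (SE 0.26). The other Tet3 probes went the other way, at 0.48 (SE 0.39) and 0.41 (SE 0.39). The second Tet2 probe gave -0.19 (SE 0.58), and the other probes of Dnmt3b and Uhrf1 also lay below 0. In GMPs, RAEB was lower than MDS/MPN on the brightest probes for 8 of the 9 genes, all but Tet3. In LSK cells it was higher for 6, among them Dnmt1 (2.94 in RAEB against 2.76 in MDS/MPN) and Uhrf1 (6.18 against 5.95), and lower for Tet3, Dnmt3l and Idh1.

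Among all 11364 genes searched, those whose levels over the 12 arrays were most like Dnmt3a were Ptpre (Pearson r 0.98), Map4k4 (0.97) and Satb1 (0.97), and for Dnmt3b Klhl12 (0.98), Rai1 (0.97) and Fads3 (0.96). For Idh1 they were Zdhhc5 (0.99), Napepld (0.99) and Ier3ip1 (0.98), and for Idh2 Ash2l (0.99), Mrpl13 (0.99) and Noc4l (0.98). Uhrf1 was most like Spag4 (0.98), Chtf18 (0.97) and Galk1 (0.97), and Dnmt1 most like Psmg2 (0.95), Akap1 (0.94) and Cdk1 (0.94). Tet2 had lower values, with Cdc14a (0.93), Kansl1 (0.92) and Tpp2 (0.90), and Tet3 was most like Chp1 (0.96), Pnpla2 (0.96) and Slc28a2b (0.95), and Dnmt3l most like Synpo (0.96), Ift27 (0.95) and Ak4 (0.94). Among the 9 genes themselves Uhrf1 and Idh2 had an r of 0.92 and Dnmt3a and Idh1 of -0.84. These 12 points share the step between cell types and the 6 conditions.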

How the data were processed

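Total RNA of sorted cells was labelled with Cyanine 3 and hybridised to one-colour Agilent arrays, 12 in all. Per the file headers, the authors' deposited scanner files come from Feature Extraction 10.7.1.1; the processed signal is a linear intensity after background correction, and the deposited spot and background signals are intensities too. The deposited columns for control type, outliers, saturation and signal over background hold flags (unit: other). In the authors' value table stands the same intensity as the processed signal at all 62976 spots of each array. No gene spot was saturated. Array 75th percentiles ran from 168.5 to 389.4, and the number of arrays limits the precision.

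The log2 of the deposited processed signal was taken and the log2 of the array's 75th percentile over gene spots subtracted. Spots of a probe were averaged. Probes were named through their unversioned RefSeq accession and a gene table of GRCm38.p6, used for names and promoter sequences only, because the files' headers give a different build: of 55681 probes, 26762 had 1 symbol, 0 several and 28919 none. Each gene is given by its brightest probe on average, and 13712 genes well above background on at least 2 arrays entered lmFit and eBayes of limma 3.58.1 (R 4.3.3; two-sided, Benjamini-Hochberg adjusted over all of them). GMP minus LSK used all 12 arrays with condition as a block. The Tet2 and Ezh2 effects and their interactions used the 8 arrays without disease, and the disease contrasts all 12 with cell type and condition. The arrays of both cell types of a genotype entered as separate samples. The fits were tested on simulated data. Genes with a bound only are given as at least N-fold, the bright group's mean against the dim group's lowest signal well above background on each array, or its own signal where higher. Slide numbers come from the headers: 1 slide held the 8 arrays without disease, another the diseased LSK arrays and the third the diseased GMP arrays.

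Each of the 9 genes with a probe is named in every comparison; from each pathway list up to 4 tested genes with the smallest p are named, except genes not reported here; likeness names the 3 genes with the highest r among those well above background on at least 10 arrays. The genes, lists and tests were chosen with earlier results of these data known. Alternatives were quantile normalization, normexp correction with an offset of 50, a floor, other filters, other probe rules, trend and robust options, fewer or more arrays, sex pattern as a covariate, genotype as a random block, and each array left out.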

Additional observations from a re-analysis of the deposited data

Results flagged for a closer look

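On its brightest probe only, the Tet2 knockdown effect on Tet3 had opposite signs in the cell types: both GMP pairs were below 0 and both LSK pairs above 0, with a mean effect of -0.18 in GMPs and 0.13 in LSK cells, a difference of -0.31 (GMP effect minus LSK effect). The difference was tested as an interaction and did not pass (limma adjusted p = 1.00, range over the alternatives 0.941 to 1.00). The second probe had GMP pairs of -0.19 and -0.60 and LSK pairs of -0.35 and 0.21, and the third had GMP pairs of 0.16 and 0.043 and LSK pairs of -1.06 and 0.25. With the mean of the probes the difference was -0.043. No group had enough arrays to test for a single array far from the others.

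The difference between diseased and DKO cells also had opposite signs in the cell types for 2 genes. Idh1 was lower in both diseased GMP arrays (mean -1.16) and higher in both diseased LSK arrays (mean 0.45), a difference of -1.61. Those LSK arrays also had the highest summed GMP markers of their type (1386 in MDS/MPN and 996.9 in RAEB cells, against 490.8 in DKO cells). The part of these markers in the Idh1 values was not tested. Dnmt3a was lower in both diseased GMP arrays (mean -0.11) and higher in both diseased LSK arrays (mean 0.29), a difference of -0.40. These differences were not tested. Both diseased arrays of a cell type were set against the same DKO array, and the diseased GMP and LSK arrays lay on different slides. The diseased GMP arrays also differed from the DKO GMP array in sex pattern, which the diseased LSK arrays did not, so sex cannot be told apart here.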

How the results depend on the processing

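Over 21 alternatives for GMP minus LSK, between 4 and 6 of the 9 genes were called. Dnmt3a, Dnmt3b, Dnmt3l and Idh1 kept their direction and call in 21 of 21, Idh2 lost the call in 12 and Tet3 in 16, and Uhrf1 gained it in 3. Because condition is a block, leaving out either array of a condition removes the pair: Idh2 lost the call without the wild-type (0.53), Tet2KD/KD (0.63), Ezh2-/- (0.64), DKO (0.53) or MDS/MPN (0.57) pair, and Tet3 without the wild-type (0.38), Ezh2-/- (0.38), DKO (0.41), MDS/MPN (0.41) or RAEB (0.32) pair. Quantile normalization moved the all-gene median to 0.01, against 0.16, and the share of called genes that were higher to 46.3%, against 57.7%, and turned Dnmt1 (-0.10) and Uhrf1 (-0.14). Leaving out arrays gave Tet2 -0.10 to 0.55. In the other 6 comparisons 0 of the 9 genes passed under any alternative run, so the following changes of sign are of values that did not pass; the cause was not tested. For the Tet2 knockdown, quantile normalization gave Idh2 -0.028, and single arrays left out gave Idh2 -0.055 to 0.17, Idh1 -0.0022 to 0.26, Dnmt3l -0.65 to 0.10 and Tet3 -0.11 to 0.059. For Ezh2 loss, quantile normalization and normexp gave Idh2 -0.0067 and -0.019, normexp gave Tet2 -0.0022, and arrays left out gave Idh2 -0.11 to 0.10, Tet2 -0.30 to 0.22, Dnmt3b -0.047 to 0.11 and Tet3 -0.10 to 0.064. For disease, normexp gave Uhrf1 0.039, and arrays left out gave Uhrf1 -0.33 to 0.25, Idh2 -0.11 to 0.46, Dnmt3l -0.50 to 0.14, Dnmt3a -0.054 to 0.22 and Idh1 -0.79 to 0.083.

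Counts over all genes moved more: 4486 to 10653 called for GMP minus LSK (main 6108, the highest with every probe tested), 0 to 2 for the Tet2 knockdown (0), 0 to 1 for its difference between cell types (0), 0 to 140 for Ezh2 loss (26), 3 to 10 for the interaction (5), 0 to 22 for disease (1) and 0 to 364 for RAEB against MDS/MPN (0, the highest without the LSK RAEB array). With all 12 arrays, an alternative added after seeing the data, the knockdown effect on Tet2 in GMPs minus that in LSK cells was -1.67 (SE 0.71, limma adjusted p = 1.00). No paired analysis was possible because each group holds 1 array; this concerns replicate numbers only, of which the groups share just number 1, whereas GMP and LSK arrays were paired by condition as above. Dim probes limit Dnmt3l and the second Tet2 probe, and the first Tet2 probe was dim on the GMP RAEB array.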
